A study of Mus musculus with 36 samples.

Results

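A group of 10 genes of the histone acetylation machinery was followed in stimulated mouse cortical neurons, namely 8 histone deacetylases (Hdac1, Hdac2, Hdac3, Hdac4, Hdac5, Hdac8, Hdac9 and Hdac11) and the acetyltransferase coactivators Crebbp (CBP) and Ep300. The members were chosen by name, and 10 of the 26709 genes in the RNA table are therefore described here. All 10 had a mean of at least 10 normalised reads over the 18 RNA samples and entered the tests, which ran over 16209 genes. Primary neurons came from cortices of CD-1 mouse embryos at embryonic day 15, pooled over embryos and kept for 7 days in vitro. All neurons were silenced for 2 h with 100 µM AP-5, which blocks NMDA receptors, and 1 µM TTX, which blocks sodium channels. They then received BDNF (10 ng/ml), a neurotrophin that acts through the receptor TrkB, or KCl at 55 mM, a depolarising treatment, and were collected after 1, 6 or 10 h. Controls had the blockers alone, for 3, 8 or 12 h in total. RNA-seq and ATAC-seq, a transposase assay of open chromatin, each had 2 samples in each of the 9 groups. Whether these came from separate cultures is not given by the labels, so the p-values measure the spread between samples that may share a culture.

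Acetyl groups on histone tails are added by acetyltransferases and removed by deacetylases, and acetylated promoters and enhancers are generally those in use. Class I deacetylases are mostly nuclear subunits of corepressor complexes. Class IIa deacetylases bind MEF2 transcription factors and repress their targets, and calcium-dependent kinases drive them out of the neuronal nucleus by phosphorylation. CBP and EP300 are recruited by phosphorylated CREB and by many other activators, and neuronal activity is known to engage them at enhancers. The measurements below are of transcript level and of chromatin accessibility at the genes, not of protein, localisation or enzyme activity.

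RNA depth was 8.51 to 36.7 M reads per library (megareads, median 11.6 M), and ATAC libraries held 1.24 to 6.24 M reads in peaks, library B of KCl 6 h being the shallowest. Of the RNA groups, KCl 6 h had the 2 libraries that differed most from each other. Chi-square per degree of freedom between the reads of the 2 libraries was 39.6 there and 2.44 to 10.4 in the other groups. A normalised read count is the number of reads of a gene divided by the size factor of its library. The 8 neuron markers summed to between 47160 and 58376 normalised reads per library. Map2 (19767 to 27548) and Tubb3 (9795 to 17370) were the highest of them, and Slc17a7 (528 to 944) and Rbfox3 (681 to 1224) the lowest. The cultures were not neurons alone. Summed over 8 astrocyte and radial glia markers, controls held 21532 to 24734 normalised reads. BDNF libraries held 25227 to 25504 (1 h), 20140 to 20149 (6 h) and 21142 to 21489 (10 h), and KCl libraries 24198 to 25043 (1 h), 17036 to 19593 (6 h) and 18202 to 18205 (10 h), so that every late library of either stimulus was below every control. The sum of 5 markers of proliferating cells was 4183 to 6936 in controls and lower in every library of 6 and 10 h, at 3707 to 4061 and 3788 to 3957 with BDNF and 3036 to 3462 and 2948 to 3238 with KCl. Oligodendrocyte-lineage markers summed to 6161 to 6620 in controls and 4633 to 7577 in stimulated libraries, and vascular and meningeal markers to 2786 to 3993 and 2564 to 4369. Microglial markers summed to 198 at most, P2ry12 reached 10.9, and endothelial Cldn5 was listed at 0 in 10 of 18 libraries. The part of these other cells in the results below was not tested. In such mixed cultures, fewer cells of a type and less RNA per cell cannot be told apart.

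In silenced neurons the members covered a wide range of levels. Per kb of annotated exon, the mean over the 6 controls was highest for Hdac2, at 466 ± 8.52 normalised reads (SD, n = 6), and next for Hdac3, at 233 ± 9.61. Hdac11 (136 ± 15.0), Hdac5 (116 ± 8.08) and Ep300 (94.6 ± 6.99) followed. Hdac1 (63.3 ± 6.22) and Crebbp (57.8 ± 4.73) came next, and Hdac9 (19.2 ± 1.61), Hdac8 (16.6 ± 2.50) and Hdac4 (12.0 ± 1.31) were lowest. Neighbours in this order whose control libraries overlapped were Hdac11 and Hdac5, Hdac5 and Ep300, Hdac1 and Crebbp, Hdac9 and Hdac8, and Hdac8 and Hdac4. By this measure the class IIa member Hdac9 was among the 3 scarcest of the 10 in silenced neurons. Without division by exon length, its control mean (281) was above those of Hdac1 (218), Hdac4 (189) and Hdac8 (80.1). Time in AP-5 and TTX alone changed none of them detectably. In a limma model with controls of each time apart, 0 of 16209 genes were called for 6 h or 10 h against 1 h of control (164 and 181 at an unadjusted p under 0.05), and the lowest unadjusted p of a member was 0.12 (Hdac1, 6 h). Chance alone puts about 1 gene in 20 under 0.05, more than were seen. The test was thus cautious, and a small change with time could have been missed. The main comparisons use the 6 controls as a single level.

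**Figure D1:**
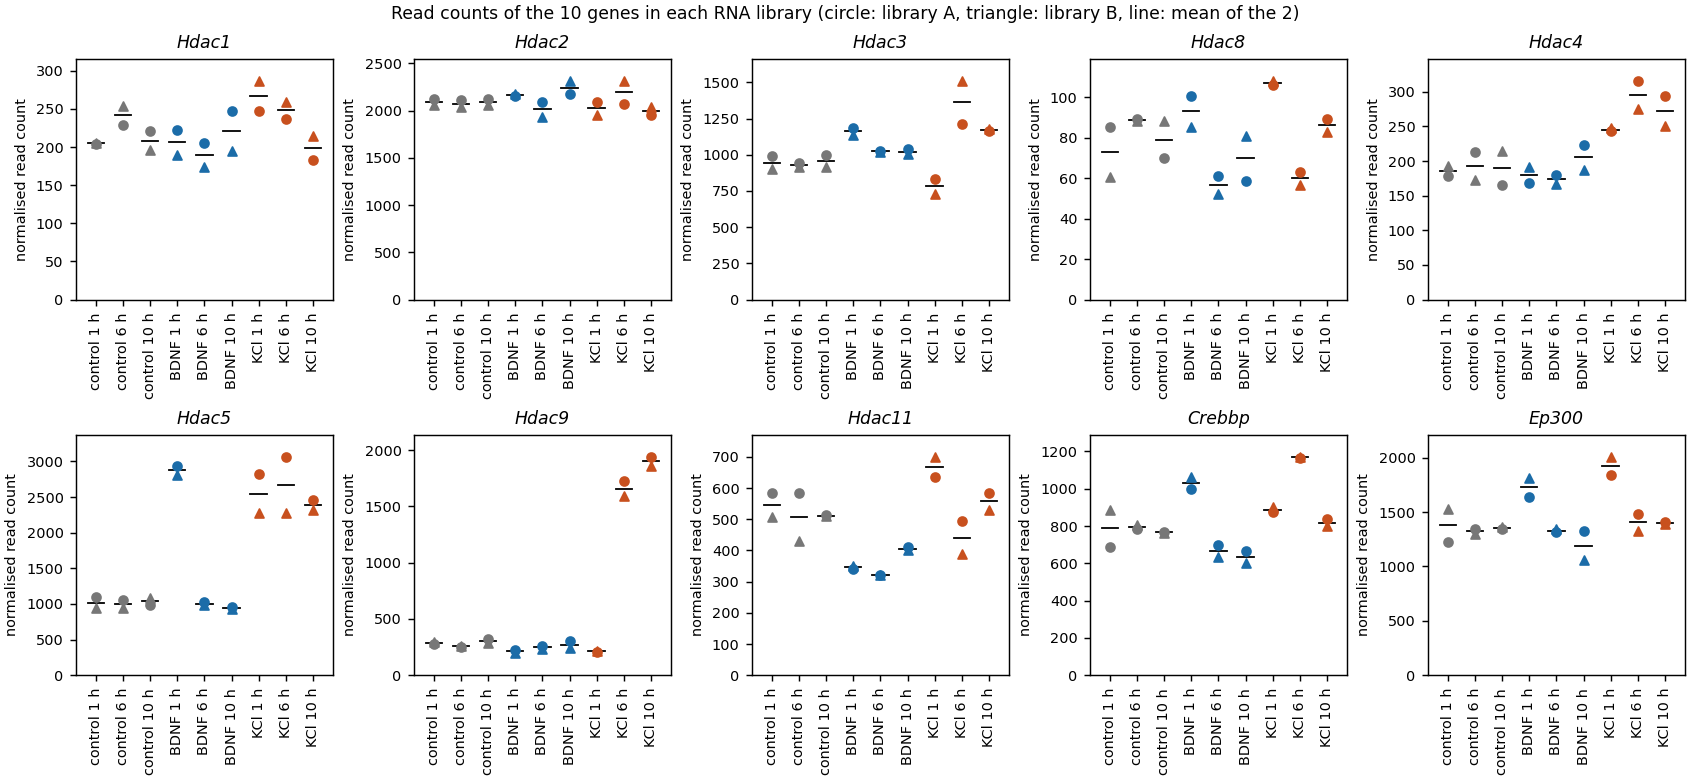
Normalised read counts of the 10 genes in each of the 18 RNA libraries, by group, with a line at the mean of the 2 libraries and a separate linear axis from 0 for each gene. Hdac9 stood at 1589 to 1943 in the KCl libraries of 6 and 10 h and at 318 or below in every other library, and Hdac5 was high in BDNF 1 h and in all KCl libraries.

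Stimulation moved the members by very different amounts, and the number called varied with stimulus and time. A gene is called where the adjusted p of limma (Benjamini-Hochberg over 16209 genes) is below 0.1. Against controls, BDNF changed 6 of 10 members at 1 h (40.4% of all genes tested were called), of which 4 were higher (21.3% of all genes) and 2 lower (19%). At 6 h of BDNF 3 were called, all lower (43.3% of all genes were called, 22.1% higher and 21.1% lower), and at 10 h 3, again all lower (40.6% called, 21.1% higher and 19.5% lower). KCl changed 9 members at 1 h (54.7% of all genes), 7 of them higher (26.5%) and 2 lower (28.2%). At 6 h of KCl 7 were called (66.5% of all genes), 5 higher (33.4%) and 2 lower (33.1%), and at 10 h 4, all higher (57.2% called, 29% higher and 28.2% lower). These shares lie around the background, so the members are described below by size and timing rather than by being called. The median absolute log2 difference of the members was 0.33 at BDNF 1 h and 0.37 at KCl 1 h, beside 0.21 and 0.28 over all genes. At 6 h it was 0.14 with BDNF and 0.46 with KCl, beside 0.23 and 0.38 over all genes. By 10 h it was 0.12 for both stimuli, beside 0.22 and 0.30 over all genes. Members were ranked by the range of their group means on the log2 scale. Hdac9 (3.16) and Hdac5 (1.60) had wider ranges than 98.5% and 86.2% of genes tested, while Hdac2 (0.17) was at the percentile 0.16. The other members lay between the percentiles 17.8 (Hdac1) and 65.5 (Hdac11).

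**Figure D2:**
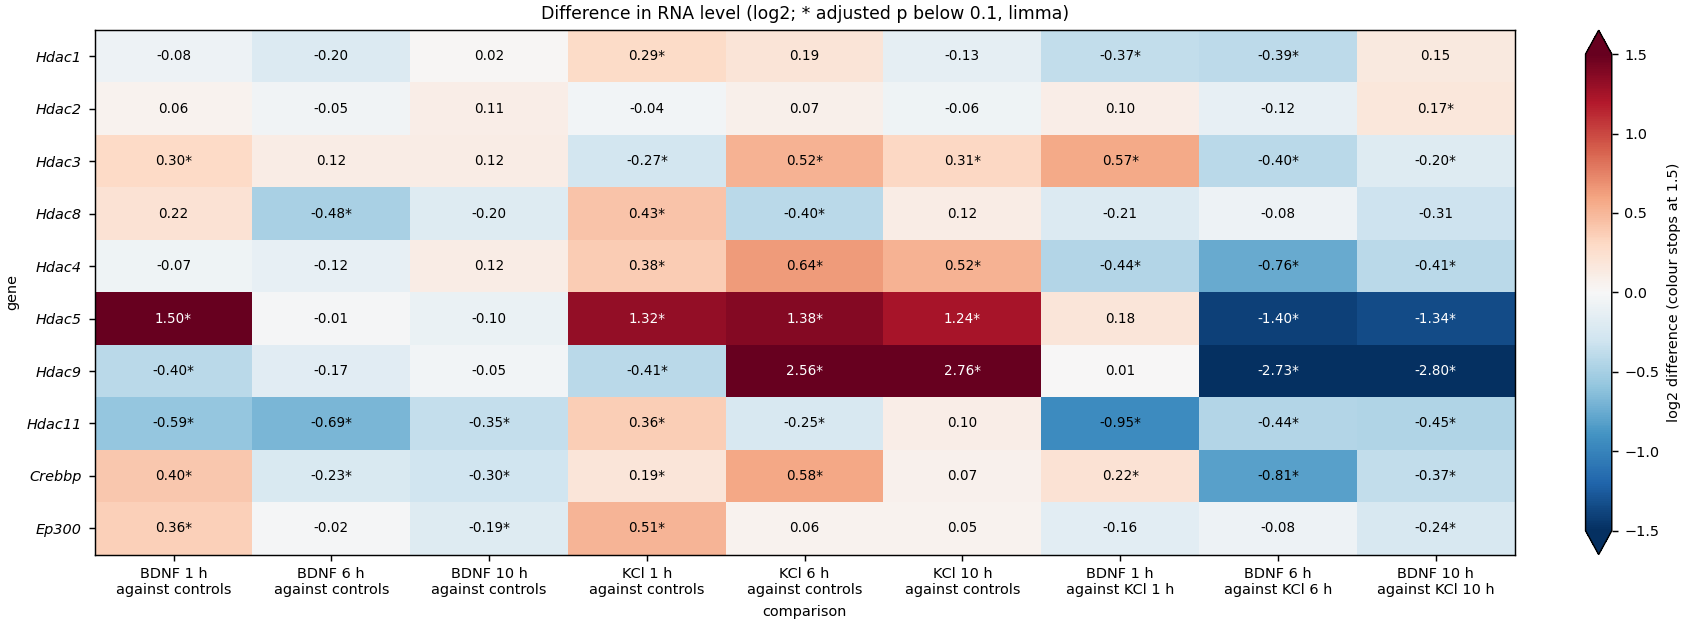
Log2 differences of the 10 genes (rows, by class) for each stimulus and time against controls and for BDNF against KCl at the same time, with a star where limma's adjusted p is below 0.1. Colour runs from lower (blue) to higher (red) and stops at 1.5 in either direction, which Hdac9 passes at KCl 6 h (2.56) and 10 h (2.76).

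Among the class IIa deacetylases, Hdac9 (ENSMUSG00000004698, mm10 chr12:34047580-34917095, minus strand) gave the largest response of the 10. Its 6 control libraries held 254 to 318 normalised reads (median 282). With KCl it was 207 and 215 (1 h), then 1724 and 1589 (6 h) and 1943 and 1856 (10 h). With BDNF it was 227 and 198 (1 h), 262 and 236 (6 h) and 300 and 246 (10 h). All 4 late KCl libraries stood several-fold above every other library, and both stimuli had put Hdac9 below every control at 1 h. Against controls, Hdac9 rose 5.89-fold at KCl 6 h (log2 2.56, 95% interval 2.36 to 2.76, adjusted p = 6.61e-15) and 6.76-fold at 10 h (log2 2.76, adjusted p = 3.57e-15). At 1 h it fell by 0.41 with KCl (adjusted p = 0.00119) and by 0.40 with BDNF (adjusted p = 0.0022) on the log2 scale, and the difference between the stimuli was 0.01 (95% interval -0.23 to 0.25). At 6 and 10 h the BDNF values were -0.17 and -0.05 and did not pass the test, and BDNF was lower than KCl by a log2 difference of -2.73 and -2.80 (adjusted p = 1.79e-13 and 1.12e-13). From 1 to 6 h of KCl, Hdac9 rose 7.81-fold (adjusted p = 4.77e-14), while 10 h against 6 h gave 0.20 and was not called. No called difference of Hdac9 lost its call under any alternative tried or when any single library was left out.

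Hdac5 (ENSMUSG00000008855, chr11:102194432-102230166, minus strand), whose nuclear export in active neurons is well described, was the other strongly moving class IIa gene. Controls held 936 to 1092 normalised reads (median 1020). With BDNF the libraries held 2936 and 2816 (1 h), 1022 and 987 (6 h) and 962 and 932 (10 h). Those with KCl held 2819 and 2275 (1 h), 3069 and 2277 (6 h) and 2463 and 2324 (10 h). Hdac5 was thus high at 1 h with either stimulus, and at 6 and 10 h only the KCl libraries stood above the controls. Against controls it rose 2.83-fold at BDNF 1 h (95% interval of the log2 difference 1.31 to 1.70, adjusted p = 5.13e-11) and 2.50-fold at KCl 1 h (log2 1.32, adjusted p = 2.96e-10), and the difference between the 2 stimuli was 0.18 (95% interval -0.06 to 0.42). KCl kept it 2.60-fold higher at 6 h (adjusted p = 1.14e-10) and 2.36-fold higher at 10 h (adjusted p = 1.17e-09). In BDNF the gene fell by 1.52 on the log2 scale from 1 to 6 h (adjusted p = 3.86e-09), to values that differed from controls by -0.01 and -0.10 at 6 and 10 h and were not called. BDNF was lower than KCl by a log2 difference of -1.40 at 6 h and -1.34 at 10 h (adjusted p = 4.13e-09 and 1.46e-08). Hdac5 too kept each of its calls under every alternative and with every library left out, and 3 differences became calls when a KCl library was left out. These were the 1 h difference between the stimuli without KCl 1 h A (0.34, adjusted p = 0.0552) and, without KCl 6 h B, the changes from 1 to 6 h (0.28, adjusted p = 0.0443) and from 6 to 10 h of KCl (-0.36, adjusted p = 0.0499).

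Hdac4 (ENSMUSG00000026313, chr1:91928779-92195699, minus strand), the third class IIa member, responded to KCl and not detectably to BDNF. Controls held 166 to 215 normalised reads (median 186). KCl libraries held 243 and 247 (1 h), 316 and 276 (6 h) and 293 and 250 (10 h), all above every control. BDNF libraries held 169 and 192, 180 and 167, and 223 and 188 at the same times and overlapped the controls. The rise with KCl was 0.38 on the log2 scale at 1 h (adjusted p = 0.00958), 1.56-fold at 6 h (adjusted p = 5.25e-05) and 1.44-fold at 10 h (adjusted p = 0.000712). The BDNF differences were -0.07, -0.12 and 0.12, with 95% intervals that reach from -0.36 to 0.35 in all. BDNF against KCl was called at 1, 6 and 10 h, with log2 differences of -0.44, -0.76 and -0.41 (adjusted p = 0.0162, 0.000111 and 0.027). Without library A of BDNF 1 h the first of these was no longer called (adjusted p = 0.15), nor was the last without library B of BDNF 10 h or A of KCl 10 h (adjusted p = 0.238 and 0.206). All 3 class IIa members were therefore higher than controls with KCl at 6 and 10 h, where 33.4% and 29% of all genes were higher. With BDNF 0 of 3 were higher at those times, where 22.1% and 21.1% were. Hdac7, a class IIa gene outside the members and given below, fell at KCl 1 h, rose at 6 h and was not called at 10 h. With BDNF, Hdac7 fell at all 3 times.

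Of the class I deacetylases, Hdac3 (ENSMUSG00000024454, chr18:37935844-37955016, minus strand), the catalytic subunit of the NCoR and SMRT corepressor complexes, was called most often, in 4 of the 6 comparisons with controls. Controls held 903 to 995 normalised reads (median 930). With BDNF, Hdac3 was at 1188 and 1139 (1 h), 1029 and 1016 (6 h) and 1036 and 1007 (10 h). With KCl it was at 835 and 730 (1 h), 1213 and 1510 (6 h) and 1165 and 1175 (10 h). At 1 h both BDNF libraries were above and both KCl libraries below all controls, and the late KCl libraries were above them all. Hdac3 rose with BDNF at 1 h (log2 0.30, adjusted p = 0.00305), fell by 0.27 on the log2 scale with KCl at 1 h (adjusted p = 0.00427), and rose with KCl at 6 h (0.52, adjusted p = 3.22e-06) and 10 h (0.31, adjusted p = 0.00148). The direct difference at 1 h was 0.57 (adjusted p = 3.09e-05), and at 6 h it was -0.40 (adjusted p = 0.000815). The fall with KCl at 1 h was not called without library B of that group (-0.18, adjusted p = 0.146). The 10 h difference between the stimuli (-0.20, adjusted p = 0.0966) was lost without any 1 of the 4 libraries (adjusted p = 0.168 to 0.278), and the 6 to 10 h change of KCl, not called with all libraries, was -0.37 without KCl 6 h A (adjusted p = 0.00592).

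Of the remaining class I genes, Hdac2 and Hdac1 had narrower ranges of group means on the log2 scale than Hdac3 (0.17 and 0.49 against 0.79), and Hdac8 a wider one (0.91). Hdac2 (ENSMUSG00000019777, chr10:36974544-37001889, plus strand), the most abundant member, held 2034 to 2122 normalised reads in controls (median 2088) and 1934 to 2313 over the 12 stimulated libraries. It was called in none of the 6 comparisons with controls, where its log2 differences lay between -0.06 and 0.11 and the outer bounds of the 95% intervals were -0.19 and 0.23, although without KCl 6 h A the KCl 6 h difference was called at 0.15 (adjusted p = 0.0723). Its close paralogue Hdac1 (ENSMUSG00000028800, chr4:129516104-129542713, minus strand), which joins the same Sin3, NuRD and CoREST complexes, held 195 to 254 in controls (median 213). Hdac1 was higher at KCl 1 h, with 247 and 287 (log2 0.29, adjusted p = 0.0502), a call that was lost without library B of that group (adjusted p = 0.384). BDNF was lower than KCl at 1 h (-0.37, adjusted p = 0.0527) and 6 h (-0.39, adjusted p = 0.0312), and neither was called without library B of BDNF (adjusted p = 0.314 and 0.243) or of KCl (adjusted p = 0.304 and 0.145). At KCl 6 h Hdac1 was called only without control 6 h B (0.23, adjusted p = 0.0935). Hdac8 (ENSMUSG00000067567, chrX:102284639-102505359, minus strand), a class I enzyme that removes acetyl groups from cohesin, had 60.3 to 89.1 in controls (median 86.7) and the lowest counts of the 10. It was higher at KCl 1 h (106 and 108, log2 0.43, adjusted p = 0.0362) and lower at 6 h with BDNF (61.3 and 52.2, log2 -0.48, adjusted p = 0.027) and with KCl (62.9 and 56.7, log2 -0.40, adjusted p = 0.0399). Each of these 3 calls was lost when 1 stimulated library was left out (adjusted p = 0.132 and 0.15 without KCl 1 h A and B, 0.26 without BDNF 6 h B and 0.214 without KCl 6 h B).

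Hdac11 (ENSMUSG00000034245, chr6:91156665-91174692, plus strand), the sole class IV enzyme, was the member that BDNF lowered at every time. Controls held 430 to 585 normalised reads (median 512). With BDNF it was 341 and 351 (1 h), 322 and 321 (6 h) and 411 and 401 (10 h), and all 6 of these libraries were below every control. With KCl it was 637 and 701 (1 h), 495 and 388 (6 h) and 583 and 531 (10 h), so that only the 1 h libraries stood above the controls. On the log2 scale Hdac11 fell by 0.59 at BDNF 1 h (adjusted p = 0.00011), by 0.69 at 6 h (adjusted p = 1.76e-05) and by 0.35 at 10 h (adjusted p = 0.0112). It rose by 0.36 at KCl 1 h (adjusted p = 0.00554), and BDNF was lower than KCl by -0.95 at that time (adjusted p = 3.03e-06). A fall of 0.25 at KCl 6 h (adjusted p = 0.0427) rested on library B, without which the difference was -0.07 (adjusted p = 0.65), and with controls of 6 h alone it was not called (adjusted p = 0.223). The 6 h difference between the stimuli was -0.44 (adjusted p = 0.00543), lost without KCl 6 h A (adjusted p = 0.109), and the 10 h call with BDNF was lost without library B (-0.34, adjusted p = 0.109). The antisense gene Gm14573, which overlaps Hdac11 exons, held at most 3.47 normalised reads in any library.

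Both coactivators rose early. Crebbp (ENSMUSG00000022521, chr16:4081328-4213997, minus strand), which encodes CBP, held 688 to 885 normalised reads in controls (median 776). BDNF libraries held 1001 and 1065 (1 h), 700 and 635 (6 h) and 666 and 603 (10 h). KCl libraries held 873 and 902, 1167 and 1173, and 836 and 802 at the same times. Crebbp was thus highest at 1 h with BDNF and at 6 h with KCl. It rose with BDNF at 1 h (log2 0.40, adjusted p = 0.000292) and with KCl at 1 h (0.19, adjusted p = 0.0516) and 6 h (0.58, adjusted p = 1.18e-06). With BDNF it fell by 0.23 at 6 h and by 0.30 at 10 h on the log2 scale (adjusted p = 0.0257 and 0.00502). The difference between the stimuli at 6 h was -0.81 (adjusted p = 3.55e-07), while the 1 h difference of 0.22 (adjusted p = 0.0781) was lost without any 1 of its libraries (adjusted p = 0.117 to 0.31). Without library B of BDNF 6 h or of BDNF 10 h, the late falls were -0.16 and -0.23 and not called (adjusted p = 0.307 and 0.136). The rise at KCl 1 h was not called without either of its libraries (adjusted p = 0.12 and 0.228) or against controls of 1 h alone (adjusted p = 0.168).

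Ep300 (ENSMUSG00000055024, chr15:81585351-81652077, plus strand), the paralogue of Crebbp, held 1226 to 1527 normalised reads in controls (median 1345). At 1 h it held 1639 and 1814 with BDNF and 1836 and 2010 with KCl, all above every control. From 6 h on, the libraries of both stimuli lay between 1056 and 1485. Ep300 rose 1.28-fold at BDNF 1 h (log2 0.36, adjusted p = 0.00199) and 1.43-fold at KCl 1 h (log2 0.51, adjusted p = 2.67e-05). Unlike Crebbp, its KCl 6 h value was 0.06 and not called, and from 1 to 6 h of KCl it fell by 0.45 on the log2 scale (adjusted p = 0.000751) while Crebbp rose by 0.40 (adjusted p = 0.00126). A lower value at BDNF 10 h (-0.19, adjusted p = 0.089) came from library B, without which the difference was -0.02 (adjusted p = 0.902), and it was also lost with controls of 10 h alone (adjusted p = 0.23) or without control 1 h B, 6 h A, 10 h A or 10 h B (adjusted p = 0.11 to 0.162). The fall of 0.38 from 1 to 6 h of BDNF was lost without BDNF 1 h B (adjusted p = 0.106), and the 10 h difference between the stimuli (-0.24, adjusted p = 0.0664) without BDNF 10 h B or either library of KCl 10 h (adjusted p = 0.651, 0.184 and 0.152).

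Comparing the stimuli directly, 5 of 10 members differed between BDNF and KCl at 1 h (42.8% of all genes), 7 at 6 h (57.3%) and 8 at 10 h (45%). At 1 h 2 were higher with BDNF (24.6% of all genes) and 3 lower (18.2%). At 6 h all 7 were lower with BDNF, where 27.8% of all genes were, and at 10 h 7 of the 8 were (21.8% of all genes). Hdac2 alone was higher with BDNF at 10 h (23.1% of all genes, log2 0.17, adjusted p = 0.067), a call that was lost without library B of BDNF 10 h or either library of KCl 10 h (adjusted p = 0.309, 0.244 and 0.102). Without library B of BDNF 10 h or A of KCl 10 h, 4 members were called at 10 h. At 1 h, 3 were called without either library of BDNF 1 h or without library B of KCl 1 h. Within each stimulus, 4 members changed from 1 to 6 h of BDNF (33.6% of all genes), all of them lower (17.7%), namely Hdac5, Hdac8, Crebbp and Ep300. The Hdac8 call (-0.70, adjusted p = 0.0126) was lost without library A of BDNF 1 h or B of BDNF 6 h (adjusted p = 0.122 for both). From 6 to 10 h of BDNF, limma called 0 members and 0.216% of all genes, 2 members had an unadjusted p under 0.05, and edgeR and DESeq2 on the recovered reads also called 0. With KCl, 6 members changed from 1 to 6 h (59.6% of all genes), with Hdac9, Hdac3 and Crebbp higher and Hdac8, Hdac11 and Ep300 lower. From 6 to 10 h of KCl 3 were called (22.5% of all genes), Crebbp lower (-0.51, adjusted p = 0.00112) and Hdac8 and Hdac11 higher (0.52 and 0.35, adjusted p = 0.0862 and 0.065). The Hdac8 call of that step was lost without library B of KCl 6 h or either library of KCl 10 h (adjusted p = 0.138 to 0.328), and that of Hdac11 without B of KCl 6 h or A of KCl 10 h (adjusted p = 0.518 and 0.343). The count of 3 was 1 without library A of KCl 10 h and 5 without library A of KCl 6 h. Against controls, the BDNF 6 h count of 3 became 1 without library B of that group, the BDNF 10 h count of 3 became 0 without its library B, and the KCl 1 h count of 9 became 5 without its library B.

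The genes with the most similar course over the 9 group means (Pearson's r on the log2 scale, a description over groups that share libraries and depth with the member) were Gabra4 (r = 0.995), Snx7 (0.991) and Fbxl2 (0.988) for Hdac9. For Hdac5 they were the clock gene Per1 (0.993), Pgam2 (0.986) and Chrm4 (0.985), and for Hdac11 Pef1 (0.981), Shd (0.972) and Agap1 (0.960). Gabra4 encodes a subunit of GABA-A receptors and Chrm4 a muscarinic acetylcholine receptor.

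ATAC-seq gave 38 peaks in the member genes or within 5 kb of them, of which 14 overlapped a promoter (from 1000 bp before to 100 bp after an annotated start), 20 lay in introns and 4 in the flanks. Hdac9 had 15 peaks, spread over a gene of 870 kb, and Hdac4 had 8. All 38 entered the test, in which a peak higher than controls at an adjusted p below 0.1 (edgeR) is called gained and a lower one closing. BDNF 1 h gained 5 and closed 1 of the 38, beside 12.5% and 4.78% of all 56383 peaks. BDNF 6 h gained 2 (8.88% of all peaks), and BDNF 10 h gained 1 (7.46%) and closed 1 (1.9%). KCl gained 1 (5.29%) and closed 1 (3.05%) at 1 h, gained 2 at 6 h (5.44%), and gained 3 (5.91%) and closed 1 (1.96%) at 10 h. These counts are near the background and most were lost under some alternative or without some library, so they are read below peak by peak. Under TMM scaling in place of the LOESS offsets, KCl called 5, 6 and 10 of the 38 peaks at 1, 6 and 10 h, of which 1, 4 and 4 were gained.

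Of the 14 promoter peaks, 2 were called against controls at KCl 1 h, 1 each at BDNF 1 h, BDNF 10 h and KCl 10 h, and the log2 differences of all 14 from controls lay between -0.42 and 0.75 at BDNF 1 h and between -0.77 and 0.76 at KCl 10 h. The large RNA changes of Hdac5 went with no called gain at its promoters. The main Hdac5 promoter peak (chr11:102229821-102230646) was called in no comparison, although Hdac5 transcripts rose 2.83-fold at BDNF 1 h. A second Hdac5 promoter peak (chr11:102218707-102219088), 11.3 kb into the gene, was closing at BDNF 10 h, where the 2 libraries held 23.6 and 22.2 scaled reads and the controls 39.5 to 65.3 (log2 -1.21, adjusted p = 0.00679). That call was lost without library B (-1.16, adjusted p = 0.135). At the Crebbp promoter (chr16:4213203-4214458), KCl 1 h held 155 and 131 scaled reads and the controls 138 to 225, and the difference of -0.38 (adjusted p = 0.0931) became -0.17 against controls of 1 h alone (adjusted p = 0.681) and was lost without either KCl 1 h library (adjusted p = 0.175 and 0.607) or any of 4 control libraries (1 h B, 6 h A, 6 h B and 10 h A, adjusted p = 0.101 to 0.213).

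Some peaks and promoters of the 3 class IIa members are printed, and only windows that hold a motif match are shown. Peaks are given as plus-strand sequence of mm10. RefSeq promoters are given in the sense of the gene (GRCm38.p6, 250 bases before to 50 after a start). Not printed is the Hdac9 intron peak chr12:34759898-34760324, whose central 300 bases held 0 matches. The RefSeq promoters of the first Hdac9 start and of Hdac4 also held 0 and are not printed. Nor is the Hdac4 promoter peak chr1:92195571-92196240, whose central 300 bases held 1 match. Windows were searched on both strands for TGANTCA (AP-1), TGACGTCA (CRE, the CREB site), GCGTGGGCG (EGR) and a loose MEF2 site, CTA and TAG with 4 bases of any kind between them, and capitals mark each match. Over all 58177 peaks, a centred window of 237, 246 or 300 bases held TGANTCA in 14.38%, 14.68% and 16.42% and the loose MEF2 letters in 3.562%, 3.682% and 4.381%. RefSeq had a promoter for 8 of the 10 members, and over all 32851 promoters 7.808% held TGANTCA and 3.686% the MEF2 letters.
Hdac9 intron peak, chr12:34516038-34516274: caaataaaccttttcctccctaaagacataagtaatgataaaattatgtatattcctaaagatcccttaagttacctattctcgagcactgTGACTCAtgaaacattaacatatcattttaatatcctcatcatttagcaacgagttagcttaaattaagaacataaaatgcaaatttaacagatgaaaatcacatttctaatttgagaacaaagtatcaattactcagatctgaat
Hdac9 intron peak, chr12:34569275-34569574 (central 300 bases): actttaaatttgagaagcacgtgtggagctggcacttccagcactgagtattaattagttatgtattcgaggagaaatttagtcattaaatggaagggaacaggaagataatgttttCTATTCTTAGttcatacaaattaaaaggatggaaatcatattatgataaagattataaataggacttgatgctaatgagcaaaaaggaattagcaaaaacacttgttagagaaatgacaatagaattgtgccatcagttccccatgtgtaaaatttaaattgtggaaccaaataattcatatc
Hdac9 inner promoter, chr12:34528840-34529139 (minus strand): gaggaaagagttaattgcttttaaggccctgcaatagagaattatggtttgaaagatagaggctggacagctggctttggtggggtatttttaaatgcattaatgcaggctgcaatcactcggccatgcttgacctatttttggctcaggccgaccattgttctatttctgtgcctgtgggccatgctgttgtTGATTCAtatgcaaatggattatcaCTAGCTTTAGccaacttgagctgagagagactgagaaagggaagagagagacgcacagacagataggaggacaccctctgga
Hdac4 intron peak, chr1:91942730-91942975: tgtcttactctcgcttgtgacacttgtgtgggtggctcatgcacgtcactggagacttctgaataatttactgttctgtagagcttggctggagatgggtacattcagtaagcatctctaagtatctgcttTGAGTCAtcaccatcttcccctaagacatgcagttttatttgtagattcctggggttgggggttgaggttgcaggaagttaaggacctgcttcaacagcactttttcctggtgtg
Hdac5 promoter, chr11:102230123-102230422 (minus strand): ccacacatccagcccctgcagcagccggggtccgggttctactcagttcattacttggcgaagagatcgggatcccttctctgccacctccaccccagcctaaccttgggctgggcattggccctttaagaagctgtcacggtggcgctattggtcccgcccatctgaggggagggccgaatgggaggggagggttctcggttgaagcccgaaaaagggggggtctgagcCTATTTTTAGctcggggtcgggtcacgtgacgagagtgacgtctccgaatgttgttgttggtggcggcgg

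In Hdac9, the 237-base intron peak 401 kb into the gene holds 1 match to TGANTCA, at position 92. Controls had 1.14 to 11.2 scaled reads there. KCl had 14.3 and 23.9 (6 h) and 11.5 and 18.9 (10 h), while BDNF had 9.39 and 19.4 (1 h) and 11.6 and 13.2 (6 h). The late KCl libraries were above all controls, as were those of BDNF 6 h, and the KCl 1 h libraries (7.68 and 6.56) were not. The peak was gained at KCl 6 h (log2 1.90 ± 0.57, adjusted p = 0.0282) and 10 h (1.69 ± 0.54, adjusted p = 0.0436) and at BDNF 1 h (1.63 ± 0.52, adjusted p = 0.0182) and 6 h (1.40 ± 0.53, adjusted p = 0.0872), the error being the SE. BDNF gained this peak while Hdac9 transcripts fell or were not called. Without 1 stimulated library each of these calls could be lost (adjusted p up to 0.531, BDNF 1 h without library B), and against controls of the same time alone 3 of the 4 were lost (adjusted p = 0.187 for BDNF 1 h, 0.558 for BDNF 6 h and 0.302 for KCl 6 h). Leaving out control 6 h B also ended the KCl 10 h call (adjusted p = 0.101), and leaving out control 1 h A, 6 h B, 10 h A or 10 h B ended the BDNF 6 h call (adjusted p = 0.119 to 0.193). Few reads fell in this peak, with a mean of 11.5 raw reads per library and 1 to 10 in controls, so the values carry large counting error. That mean is just above the filter of 10. Reads of the stimulated libraries, up to 32 (BDNF 1 h B), carried the peak past the filter, so its gains are a description. A count of 1 was the lowest of any peak.

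The Hdac9 intron peak 348 kb into the gene (chr12:34569088-34569761) has CTATTCTTAG, a match to the loose MEF2 letters, in its central 300 bases. Scaled reads were 19.8 to 42.1 in controls, 51.2 and 70.3 at KCl 6 h and 62.9 and 52.9 at KCl 10 h, with all 4 late KCl libraries above every control. With BDNF they were 22.1 and 16.4 (1 h), 24.4 and 28.7 (6 h) and 46.2 and 18.4 (10 h). This peak was gained at KCl 6 h (log2 0.95, adjusted p = 0.0485) and 10 h (0.93, adjusted p = 0.035), and BDNF was lower than KCl by -0.99 at 1 h and -1.12 at 6 h (adjusted p = 0.0797 and 0.0972). Leaving out either KCl 6 h library ended the 6 h call (adjusted p = 0.154 and 0.336), either KCl 10 h library ended the 10 h call (adjusted p = 0.337 and 0.121), and against controls of 10 h alone the difference was 0.55 and not called. The 2 direct calls were lost without any 1 of their stimulated libraries (adjusted p = 0.104 to 0.411).

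Other Hdac9 peaks moved in 1 or 2 comparisons. The inner promoter printed above (peak chr12:34528800-34529485, with TGATTCA and CTAGCTTTAG) had 38.5 and 54.7 scaled reads at BDNF 1 h and 80.6 and 81.6 at KCl 1 h (log2 -0.78, adjusted p = 0.0397), and was called in no comparison with controls. This call too was lost without library A of BDNF 1 h or either of KCl 1 h (adjusted p = 0.356, 0.11 and 0.203). An intron peak 157 kb in (chr12:34759898-34760324) was closing at KCl 10 h, with 14.9 and 26.4 scaled reads beside 27.1 to 51.3 in controls (log2 -1.07, adjusted p = 0.0461). Its value was -0.72 without library A (adjusted p = 0.496) and -0.56 against controls of 10 h alone (adjusted p = 0.575), the control libraries of 10 h (34.8 and 27.1) being the lowest. The same peak was closing at BDNF 1 h (-0.79, adjusted p = 0.0931), and peaks 419 and 367 kb in (chr12:34497793-34498107 and chr12:34550293-34550642) were gained there (1.09 and 0.82, adjusted p = 0.0537 and 0.047). These 3 calls were lost without 1 BDNF 1 h library (adjusted p = 0.556, 0.535 and 0.502) and, in turn, without any 1 h or 6 h control, without control 1 h B, and without either 6 h control (adjusted p = 0.102 to 0.151). A peak 697 kb in (chr12:34220129-34220519) was lower with BDNF than with KCl at 1 h (-1.01, adjusted p = 0.0715), a call lost without BDNF 1 h B or either KCl 1 h library (adjusted p = 0.164 to 0.605). The deposited RNA counts are summed per gene, so which Hdac9 start the late KCl transcripts came from was not measured here.

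**Figure D3:**
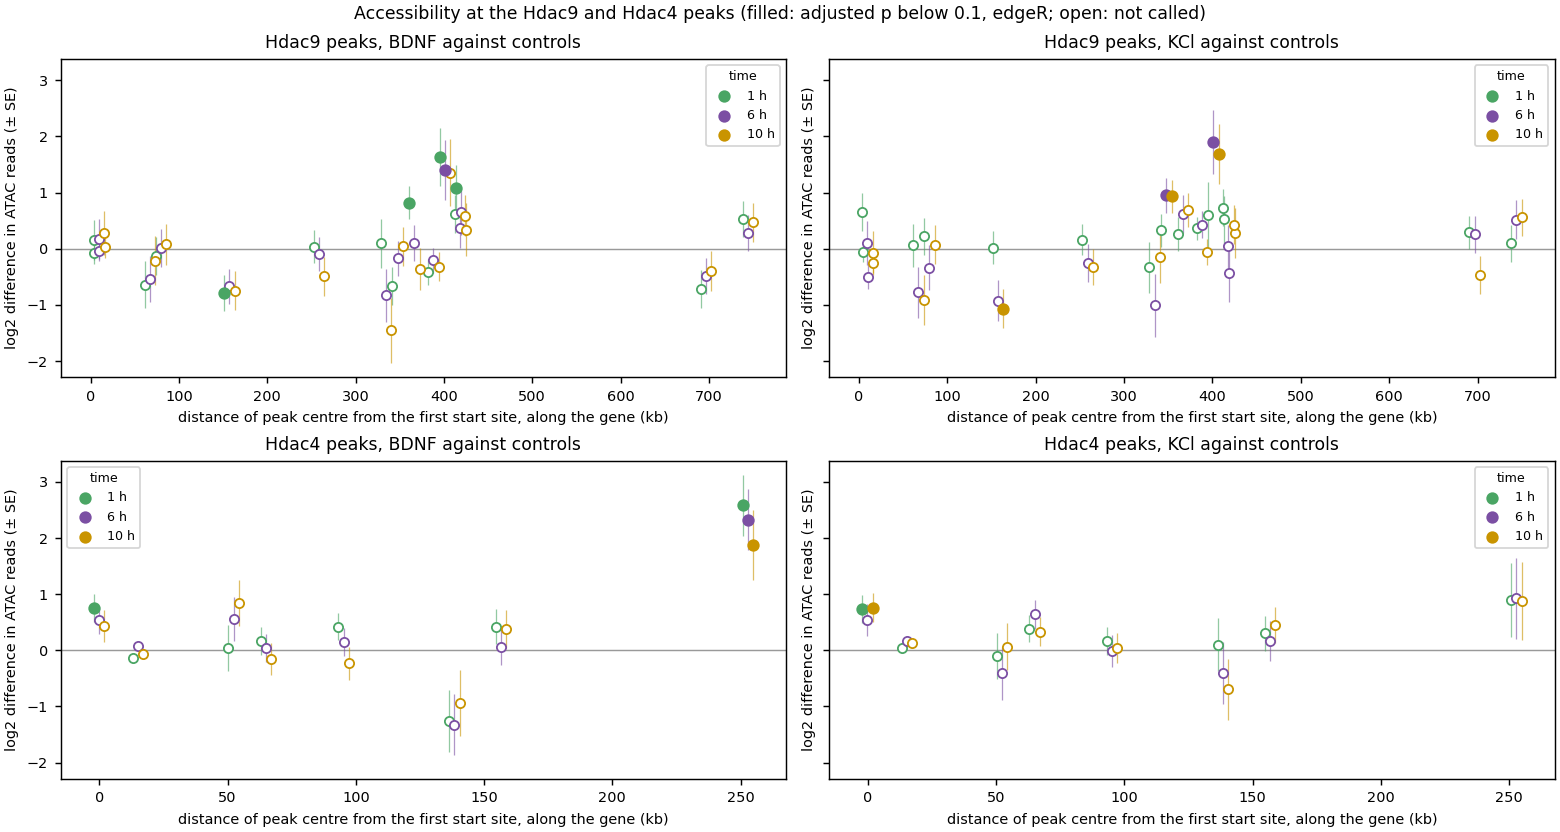
Log2 differences in ATAC reads (± SE) at the 15 Hdac9 peaks (top) and 8 Hdac4 peaks (bottom), for BDNF (left) and KCl (right) against controls at 1, 6 and 10 h, by the distance of the peak centre from the first start site in kb. Filled points are called. The peaks at 401 kb of Hdac9 and 253 kb of Hdac4 stand highest, and both passed the read filter only through stimulated libraries.

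At Hdac4, the strongest accessibility change of the 38 peaks went with BDNF, the stimulus under which Hdac4 transcripts were not called. The 246-base intron peak 253 kb into the gene holds TGAGTCA, a match to the AP-1 letters, at position 132. It held 1.19 to 6.87 scaled reads in controls. Libraries of BDNF 1 h had 22.2 and 15.4, those of 6 h had 14.1 and 17.0, and those of 10 h had 2.67 and 19.1. KCl libraries held 2.73 to 7.04 in all and overlapped the controls. BDNF gained the peak at 1 h (log2 2.58 ± 0.54 SE, adjusted p = 8.21e-05), 6 h (2.33 ± 0.55, adjusted p = 0.000911) and 10 h (1.88 ± 0.63, adjusted p = 0.0483). BDNF 1 h was above KCl 1 h by 1.69 (adjusted p = 0.0607), a call lost without any 1 of the 4 libraries (adjusted p = 0.106 to 0.363). The 10 h call rested on library B, without which the difference was -0.17 (adjusted p = 0.968), and against controls of 10 h alone it was 1.63 (adjusted p = 0.365). The 1 h and 6 h calls against controls were kept in each setting and with each library left out. The peak entered the test just above the filter, with a mean of 10.1 raw reads per library where 10 were needed. Control libraries held 1 to 4 raw reads, 1 being the lowest count of any peak, and those of BDNF 1 h held 30 and 27. Its BDNF reads thus carried it past the filter, and its rank among the 38 peaks is a description.

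The promoter peak at the first Hdac4 start (chr1:92195571-92196240), whose central 300 bases also hold TGAGTCA, was gained with both stimuli. Controls had 23.7 to 41.3 scaled reads, those of BDNF 1 h had 60.8 and 54.1, those of KCl 1 h had 54.5 and 59.0, and those of KCl 10 h had 56.7 and 58.6. All of these stimulated libraries were above every control. The log2 differences were 0.75 at BDNF 1 h (adjusted p = 0.0291), 0.74 at KCl 1 h (adjusted p = 0.0582) and 0.76 at KCl 10 h (adjusted p = 0.0676). None of the 3 calls was kept against controls of the same time alone (adjusted p = 0.276, 0.364 and 0.163) or without either of the stimulated libraries (adjusted p = 0.118 to 0.364), and both KCl calls were also lost without control 6 h B or 10 h B (adjusted p = 0.107 to 0.138).

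**Figure D4:**
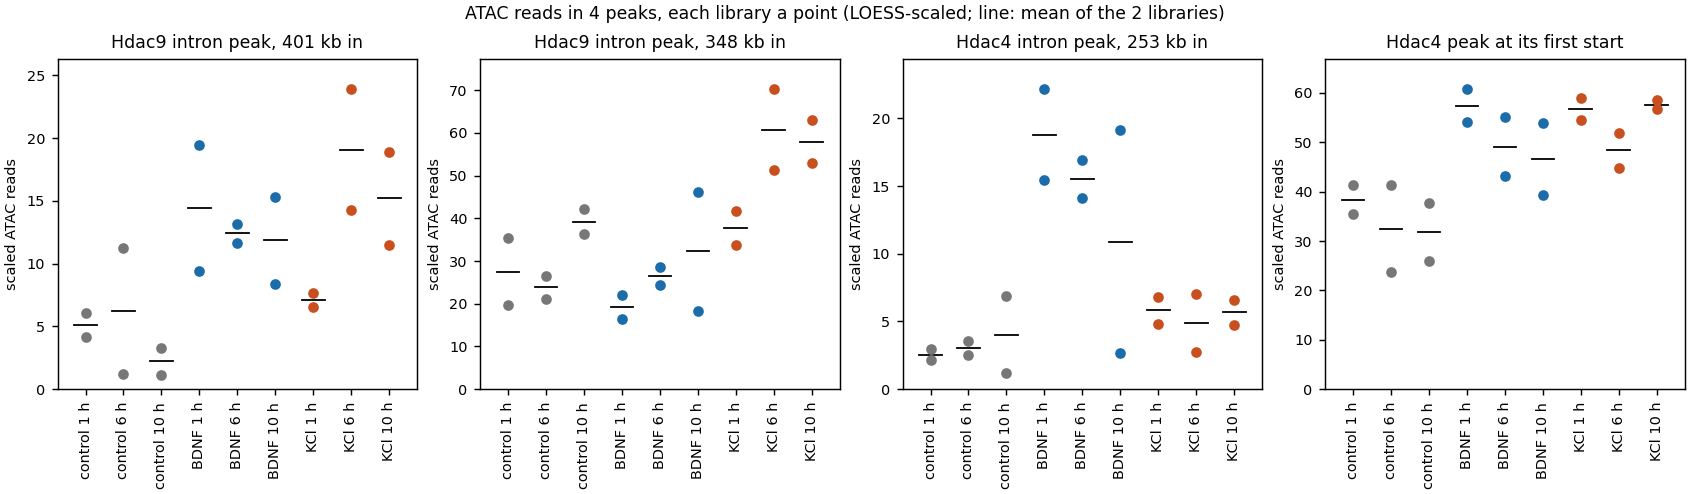
LOESS-scaled ATAC reads in each library for the 2 peaks called most often in Hdac9 and in Hdac4, with a line at the mean of the 2 libraries of a group and a linear axis from 0. In the Hdac4 intron peak 4 BDNF libraries of 1 and 6 h lie at 14.1 to 22.2 and every control and KCl library at 7.04 or below.

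The Hdac5 promoter holds CTATTTTTAG at position 231 of the printed 300 bases, just before the annotated start, and its peak was called in no comparison, as given above. No match to the other 3 motifs was found in that window, which says only that these letters are absent there. RefSeq promoters of Hdac8, Hdac4 (at an inner start), Hdac11, Crebbp and Ep300 and that of the first Hdac9 start held no match to any of the 4, and that of Hdac2 held CTACCCGTAG. In direct comparisons, the Hdac2 promoter peak (chr10:36973985-36975415) was higher at BDNF 6 h than at KCl 6 h, with 507 and 492 against 431 and 320 scaled reads (log2 0.36, adjusted p = 0.0902). Without library B of KCl 6 h it was 0.21 (adjusted p = 0.586), and it was lost without either BDNF 6 h library (adjusted p = 0.331 and 0.214). Between BDNF and KCl, edgeR called 4 of the 38 peaks at 1 h (14.9% of all peaks), 2 at 6 h (3.63%) and 0 at 10 h (1.99%), where 5 had an unadjusted p under 0.05 and TMM scaling and DESeq2 size factors called 1 each.

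The partners of the members moved too. Of 21 subunits of the HDAC1/2 complexes Sin3, NuRD and CoREST, 13 rose and 1 fell at BDNF 1 h, where 21.3% of all genes rose, and 13 rose and 2 fell at KCl 1 h (26.5% of all genes rose). The list medians were 0.20 and 0.27, beside medians over all genes within 0.01 of 0. By 10 h, 5 rose and 4 fell with BDNF and 5 rose and 1 fell with KCl. The histone chaperone subunit Rbbp7 rose with BDNF by 0.78, 0.73 and 0.71 at 1, 6 and 10 h (adjusted p = 1.79e-10, 8.76e-10 and 3.13e-09), and the CoREST subunit Rcor2 fell by 0.34, 0.39 and 0.33 on the log2 scale. With KCl the lasting changes included the Sin3 subunit Sap18 (0.83, 0.36 and 0.16) and the demethylase Kdm1a (0.36, 0.45 and 0.23). The members that these complexes carry, Hdac1 and Hdac2, were called in 1 and 0 of the 6 comparisons with controls.

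The counts of every partner list stand beside the shares of all genes called against controls. With BDNF these were 21.3% higher and 19% lower (1 h), 22.1% and 21.1% (6 h), and 21.1% and 19.5% (10 h). With KCl they were 26.5% and 28.2% (1 h), 33.4% and 33.1% (6 h), and 29% and 28.2% (10 h), so that several counts of these short lists are near the background. Of the 5 subunits of the HDAC3 complex, 2 rose and 3 fell at KCl 1 h, and Tbl1xr1 fell by 0.78, 0.26 and 0.36 and Tbl1x by 0.29, 0.31 and 0.20 at KCl 1, 6 and 10 h. With BDNF 1 rose and 1 fell at 1 h, 1 rose and 2 fell at 6 h, and 2 fell at 10 h. Among 10 other deacetylases (other Hdac genes and sirtuins), 3 rose and 6 fell at KCl 1 h, 4 rose and 4 fell at 6 h, and 4 rose and 5 fell at 10 h. Hdac10 fell by 1.11, 1.32 and 0.75 on the log2 scale with KCl, from 303 ± 28.8 normalised reads in controls to 121 ± 19.1 at KCl 6 h (n = 6 and 2), and Sirt4 by 0.84, 0.27 and 0.29. With BDNF 2 rose and 5 fell at 1 h, 1 rose and 5 fell at 6 h, and 1 rose and 2 fell at 10 h, and the class IIa gene Hdac7 fell by 0.30, 0.41 and 0.35. With KCl, Hdac7 fell by 0.51 at 1 h (adjusted p = 0.000297) and rose by 0.49 at 6 h (adjusted p = 0.000336), from 489 ± 46.3 normalised reads in controls to 686 ± 76.6, and its value of 0.21 at 10 h did not pass the test (adjusted p = 0.104).

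Of 11 other acetyltransferases and nuclear receptor coactivators, 1 rose and 2 fell at BDNF 1 h, 1 rose and 4 fell at 6 h, and 1 rose and 4 fell at 10 h. With KCl 2 rose and 4 fell at 1 h, 2 rose and 4 fell at 6 h, and 1 rose and 3 fell at 10 h. Kat6b was the only one of the list called at all 3 times of a stimulus in the same direction, and it fell by 0.33, 0.62 and 0.56 with BDNF and by 0.29, 0.46 and 0.17 with KCl. Of 7 readers of acetylated lysine, 4 rose and 0 fell at 1 h of each stimulus, where 21.3% (BDNF) and 26.5% (KCl) of all genes rose, with list medians of 0.27 for BDNF and 0.16 for KCl. At BDNF 6 h 2 of the 7 were called, both lower, and at 10 h limma called 0, with 0 at an unadjusted p under 0.05, while edgeR and DESeq2 on the recovered reads called 0 and 1. With KCl 2 rose and 1 fell at 6 h and again at 10 h, with Brd1 (0.57, 0.28 and 0.19) among those higher at all 3 times.

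**Figure D5:**
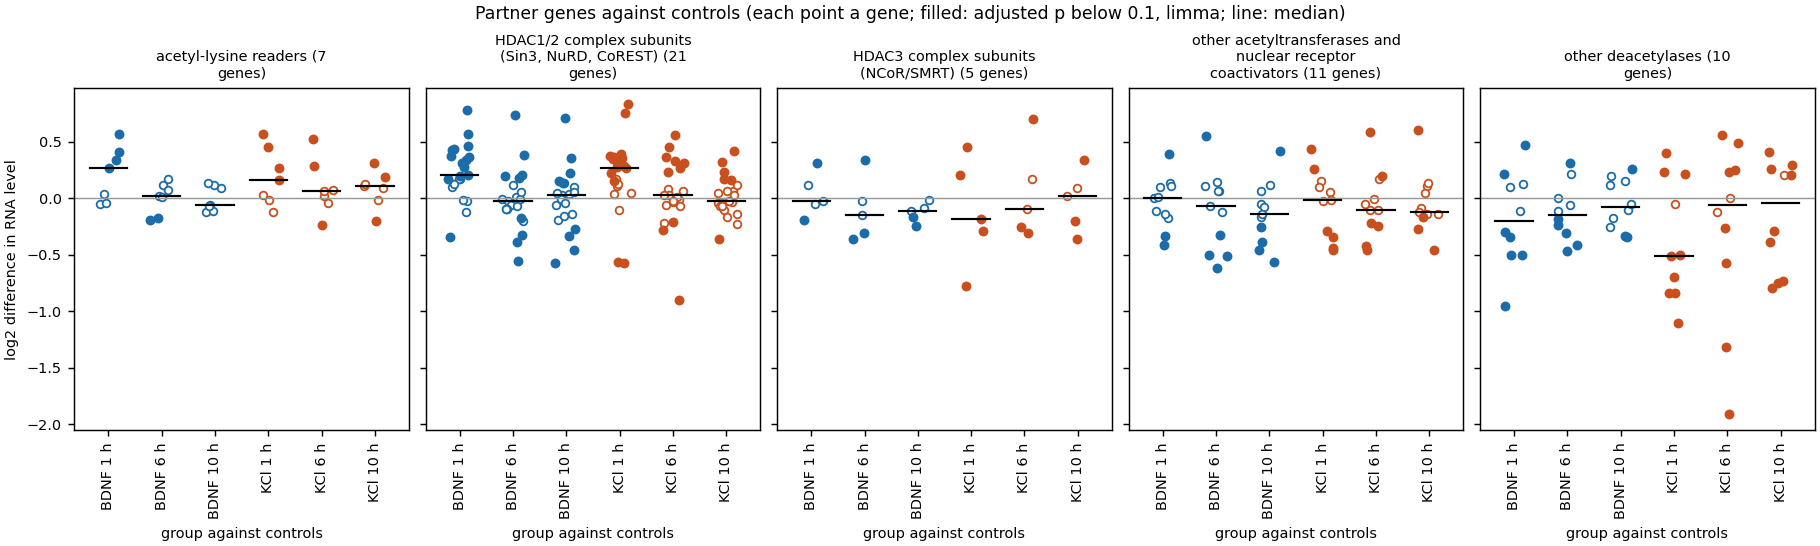
Log2 differences against controls of the genes in 5 partner lists, for each stimulus and time, with filled points called by limma at an adjusted p below 0.1 and a line at the list median. The line of the HDAC1/2 complex subunits is at 0.20 (BDNF) and 0.27 (KCl) at 1 h and between -0.02 and 0.03 at the later times.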

How the data were processed

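RNA-seq and ATAC-seq were each made from 18 samples, 2 in each of 9 groups. Per the labels and the study's methods, the authors used Trimmomatic, TopHat2, Bowtie2, MACS2, DiffBind and DESeq2 with mm10. For the read counter and its use of strand, nothing is stated in those sources. RNA values as deposited were a signal, namely reads per gene divided by a DESeq2 size factor, and every value came out whole within 0.01 once that factor was undone (100% of values). The deposited ATAC table held whole-number read counts in 58177 peaks called by the authors, although it is named as normalised. The values were treated as counts and are called raw reads here. The lowest value in any peak and library was 1, and whether a 1 can stand for a peak without reads is not stated.

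RNA was tested with limma 3.58.1 (R 4.3.3) on log2(value + 1), trended and robust, over 16209 genes with a mean of at least 10, with 7 levels (the 6 controls pooled). Fold changes are on that log2(value + 1) scale. ATAC was tested with edgeR 4.0.16 quasi-likelihood and LOESS offsets (span 0.3) over 56383 peaks with a mean of at least 10 raw reads. Tests were two-sided, with Benjamini-Hochberg adjusted p below 0.1 called. The main limma and edgeR fits were checked on simulated data, for KCl 6 h and BDNF 1 h against controls, and other steps were not. DESeq2 1.42.0 and edgeR on the recovered reads were alternatives, as were other scalings, pseudocounts, filters, thresholds and control sets and leaving out each library. Gene positions came from GENCODE M21. Intervals cover the spread between samples, and the depth of each assay is given with the results. All 10 members are named. Of each partner list, up to 2 genes per stimulus with the largest change among those called at all 3 times in 1 direction are named, except 1 gene that is not reported here. Members and lists were chosen with earlier results of these data known. Letters A and B are taken from the RNA columns and, for ATAC, name columns in table order, and neither is given by the labels.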

Additional observations from a re-analysis of the deposited data

Results flagged for a closer look

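Hdac3, Hdac11 and Crebbp were flagged because BDNF and KCl moved each of them in opposite directions against the same controls at 1 time. The direct limma difference between the stimuli also passed the threshold. Opposite calls make that likely, so it is no separate support. How many of all genes had such opposite calls was not worked out. For Hdac3 at 1 h BDNF was above KCl by 0.57 on the log2 scale (adjusted p = 3.09e-05), both BDNF libraries lying above and both KCl libraries below all 6 controls. For Hdac11 at 1 h the difference was -0.95 (adjusted p = 3.03e-06), and both BDNF libraries were below and both KCl libraries above all controls. For Crebbp at 6 h the difference was -0.81 (adjusted p = 3.55e-07), with both KCl libraries above all controls and 1 of 2 BDNF libraries, at 635, below them. As given above, the Hdac3 fall at KCl 1 h and the Crebbp fall at BDNF 6 h were not called without library B of that group. The part of other cell types and of depth in these differences was not tested. No control library of any member or called peak stood apart from the other 5 by Dixon's criterion in the 22 sets of controls examined, where chance alone gives about 1 in 20.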

How the results depend on the processing

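Most RNA calls of single genes were kept, and most single-peak ATAC calls were lost when a stimulated library was left out, the cause not being tested. Over the 10 genes, all their comparisons and all settings other than leaving out a library, 1066 RNA results stayed on their side of the threshold, 33 lost and 1 gained a call, and leaving out a library left 703, ended 47 and added 10. These RNA totals include comparisons not called in the main test, whereas those of peaks cover called ones only, so their bases differ. For called peaks the numbers were 96 kept and 42 lost, then 102 kept, 65 lost and 1 reversed, the Hdac4 intron peak at BDNF 10 h (-0.17 without library B, 2.62 without library A). Counts of partner lists stayed within 1.5 times in 250 of 270 cases.

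At an adjusted p below 0.01, BDNF against KCl called 2 of the 10 genes at 1 h and 4 at 10 h, BDNF against controls 1 at 6 h and 1 at 10 h, and KCl 10 h against 6 h 1, as did DESeq2. The same threshold left 1 peak at each time of BDNF, and 0 at each time of KCl and in BDNF against KCl at 1 and 6 h. With controls of the same time, BDNF called 3, 1 and 1 peaks and KCl 0, 1 and 1 at the 3 times. TMM scaling called 5 peaks at BDNF 10 h, 5, 6 and 10 with KCl and 1 in the direct comparison at 10 h. DESeq2 size factors called 6, then 5, 5 and 10, and 1. DESeq2 with LOESS factors called 1 at BDNF 6 h, BDNF 10 h, KCl 1 h and BDNF against KCl at 1 h, and 0 at 6 h of the last. Of all ATAC calls at KCl 1, 6 and 10 h, 63.4%, 72.6% and 75.1% were gained, against 57.6%, 65.9% and 63.2% with TMM and 53.4%, 58.2% and 54.6% with DESeq2 size factors. Promoter peaks alone gave 1, 0 and 1 for BDNF, 0 and 1 for KCl at 6 and 10 h, and 1 and 1 in the direct comparisons of 1 and 6 h.

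Leaving out each library in turn gave 3 to 5 genes in BDNF against KCl at 1 h and 4 to 7 at 10 h, 1 to 3 at BDNF 6 h, 0 to 3 at BDNF 10 h, 5 to 9 at KCl 1 h and 1 to 5 for KCl 10 h against 6 h. For peaks it gave 2 to 7, 1 to 3 and 2 to 4 with BDNF and 0 to 2, 0 to 3 and 1 to 5 with KCl at 1, 6 and 10 h, and 0 to 1, 0 to 1 and 0 to 0 in the direct comparisons.

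A replicate block on the column letter left every RNA count as it was (for example 6 at BDNF 1 h and 9 at KCl 1 h). The letters are not known to pair samples: over 36 pairs of groups, deviations of same-lettered libraries correlated at -0.315 to 0.418, 13 of them above 0.1. With 2 libraries per group and about 10 reads in the smallest peaks, small differences in accessibility could not be detected.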
